A study of Mus musculus with 18 samples.

Results

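The muscle acetylcholine receptor and the proteins that gather it at the neuromuscular synapse were followed as a set of 10 genes, read by symbol from the 35275 genes of the deposited expression table. They comprised the 5 muscle receptor subunits (Chrna1, Chrnb1, Chrnd, Chrng and Chrne) and 5 genes of the assembly pathway (Agrn, Lrp4, Musk, Dok7 and Rapsn). The genes were read by name, and the set was chosen with earlier results of these data known. Levels came from poly(A) RNA-seq of C2C12 cells, a mouse myoblast line whose stock the labels call PAX7 NEG. Control cells, labelled wild-type, were compared with 2 kinds of MUNC overexpressing cells, one with its spliced and one with its genomic form, MUNC being a long noncoding RNA made upstream of Myod1. Each kind of cell was collected in growth medium (GM, 20% fetal bovine serum, near confluence) and after 3 days in differentiation medium (DM3, 2% horse serum). Each of the 6 groups had 3 libraries that the labels call biological replicates. The labels used here say nothing of whether a line was 1 clone, of the vector, or of what the control cells carried, and the level of MUNC itself was not analysed here.

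The adult receptor is a pentamer of alpha, beta, delta and epsilon subunits, and in embryonic or denervated muscle gamma takes the place of epsilon. Agrin released by the nerve binds LRP4 on the muscle surface, LRP4 activates the kinase MuSK, and MuSK signals with the adaptor Dok-7 so that rapsyn clusters receptors beneath the nerve terminal. Muscle cells also make several of these transcripts without a nerve, and the factors Myod1 and Myog bind E-boxes, short DNA motifs, in the promoters of receptor genes.

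The promoters of 4 genes of the set are printed as examples. Chrna1 and Chrng were higher after 3 days of differentiation in all 3 kinds of cell, Musk had the widest range between groups, and Chrne had almost no reads. Each sequence is the 250 bases before the start of transcription in RefSeq (GRCm38.p6), 5′ to 3′ on the gene's strand. Capitals mark E-boxes (CANNTG, which reads alike on both strands) and the N-box (CCGGAA on either strand), a motif of synaptic promoters, and no match shown overlaps another. The windows are chr2:73580339-73580588 on the minus strand for Chrna1, chr1:87205561-87205810 on the plus strand for Chrng, chr4:58285712-58285961 on the plus strand for Musk and chr11:70619195-70619444 on the minus strand for Chrne. RefSeq and GENCODE, from which the gene spans below come, place the start of Chrng apart, and its window lies inside the GENCODE span of the gene.
Chrna1 promoter: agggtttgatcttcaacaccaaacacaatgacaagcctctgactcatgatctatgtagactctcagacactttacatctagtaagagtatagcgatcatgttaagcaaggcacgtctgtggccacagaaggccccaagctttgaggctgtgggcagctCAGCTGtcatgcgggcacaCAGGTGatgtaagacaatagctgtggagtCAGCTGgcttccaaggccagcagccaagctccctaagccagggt
Chrng promoter: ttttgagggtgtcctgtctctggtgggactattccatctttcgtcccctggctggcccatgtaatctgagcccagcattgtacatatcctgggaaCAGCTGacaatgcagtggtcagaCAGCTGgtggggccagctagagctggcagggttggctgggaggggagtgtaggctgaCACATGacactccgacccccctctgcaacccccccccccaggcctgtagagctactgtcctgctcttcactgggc
Musk promoter: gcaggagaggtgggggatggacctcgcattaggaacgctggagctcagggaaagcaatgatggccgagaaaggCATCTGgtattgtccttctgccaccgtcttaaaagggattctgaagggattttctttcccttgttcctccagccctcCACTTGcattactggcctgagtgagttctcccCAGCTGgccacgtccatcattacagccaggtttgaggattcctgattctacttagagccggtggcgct
Chrne promoter: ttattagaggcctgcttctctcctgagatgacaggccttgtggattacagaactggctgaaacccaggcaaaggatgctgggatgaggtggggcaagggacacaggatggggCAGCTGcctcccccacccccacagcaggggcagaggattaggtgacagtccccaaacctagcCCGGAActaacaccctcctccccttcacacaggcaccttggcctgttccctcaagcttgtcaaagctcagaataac

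Chrna1 had 3 E-boxes, whose first bases lay 92, 73 and 44 bases before the start. The middle one read CAGGTG and both others CAGCTG. Chrng had 3, at 155, 132 and 75 bases, and Musk had 3, at 177, 100 and 68 bases. Chrne had 1 E-box, 138 bases before the start, and 1 N-box. Of 32851 mouse promoter windows of the same length, 66.2% held at least 1 E-box, 31.8% held at least 2 and 12.2% held at least 3, while 12% held the N-box. A motif match describes these letters and shows no binding. Windows were matched for 7 of the 10 genes, and none was available for Chrnd, Rapsn and Lrp4. Of the matched windows not printed, that of Chrnb1 held 3 E-boxes. Dok7 and Agrn each had 1 window with 1 E-box and another with 0. The number of E-boxes was not tested against the level of a gene.

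Levels are given in FPM, a fragment count that the submitters scaled for library size, without division by gene length. Whole reads could be recovered from these values, and libraries held 38416702 to 68788327 reads, so that 3 reads, the limit that a count of 0 allows, corresponded to 0.0429 to 0.0757 FPM. That limit covers counting error only. Changes and differences are log2 values of FPM + 1, which understate the change of genes near or below 1 FPM, here Musk, Dok7 and Chrng, so ratios of group means in FPM are given for these genes too. Tests used limma across the 13869 genes with at least 0.5 FPM in 3 or more libraries, with Benjamini-Hochberg adjustment over all of them, and a gene was called at an adjusted p under 0.05. Of the 10 genes, 9 passed this filter and Chrne did not. Musk and Dok7 had under 1 FPM in every control library and passed through the overexpressing cells. In bulk RNA, fewer cells expressing a gene and less RNA per cell cannot be told apart.

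Control cells in DM3 carried few transcripts of several genes of muscle differentiation, against their label as differentiated. Their mean level was 0.0993 FPM for Myod1, 0.344 for Myog, 0.0128 for the fusion gene Mymk, 0.444 for the embryonic myosin Myh3 and 0.0444 for the creatine kinase gene Ckm. Des, which encodes the intermediate filament desmin, reached 77.5 ± 13.9 FPM (SD, n = 3) and the titin gene Ttn 3.52 ± 1.59. Myf5, a myogenic factor of myoblasts, was at 103.3 ± 7.59 FPM in control DM3 and 71.8 ± 8.50 in control GM. MUNC spliced replicate 1 in DM3 stood apart from the other 2 libraries of its group. It had 226 FPM of Myog against 52.6 and 41.0, and it was also the highest of its group for all 4 measured receptor subunits, Lrp4, Musk and Dok7. For Agrn and Rapsn it was the lowest of its group. Of the Schwann cell markers, S100b had mean levels of 0.916 FPM in GM and 2.33 FPM in DM3 in MUNC spliced cells, 0.369 and 0.472 in MUNC genomic cells and 0.0727 and 0.0683 in control cells. Mbp had means of 1.33 and 1.15 FPM in MUNC spliced, 1.95 and 1.17 in MUNC genomic and 0.116 and 0.444 in control cells, while Sox10 had 0 or 1 read in every library. The part of these markers in the results was not tested.

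**Figure D1:**
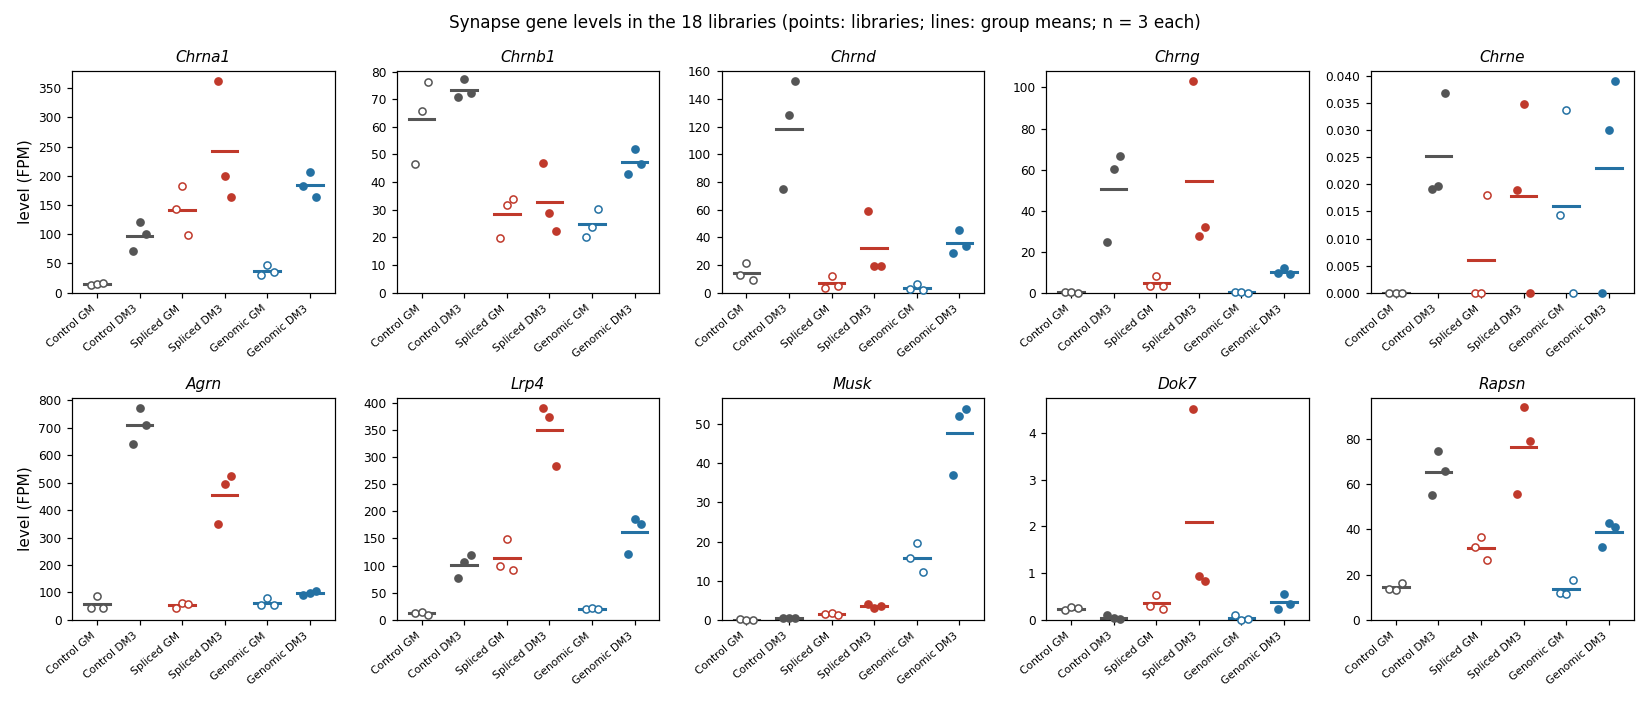
Level of each of the 10 genes in FPM (vertical axes, linear, from 0) in the 18 libraries by group; points are libraries, lines are group means, open points are GM and filled points DM3 (spliced and genomic are the MUNC spliced and MUNC genomic cells). Chrna1, Lrp4 and Rapsn are lowest in control or MUNC genomic cells in GM, Agrn is highest in control DM3, Musk is highest in both MUNC genomic groups, and Chrne stays below 0.04 FPM.

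On differentiation, most of the set rose in each kind of cell. In control cells 7 of the 9 tested genes were called higher and 0 lower by limma, against 58.2% of all tested genes called in either direction, 29.6% higher and 28.6% lower. Chrna1, Chrnd, Chrng, Agrn, Lrp4, Musk and Rapsn rose, and Chrnb1 and Dok7 did not pass the test. In MUNC spliced cells 8 rose, all but Chrnb1, where 35.6% of all tested genes were called, 17.2% higher and 18.4% lower. In MUNC genomic cells 8 rose, all but Dok7, where 51.4% of all tested genes were called, 26.3% higher and 25.1% lower. The median log2 change of the 9 genes was 2.60 in control, 1.21 in MUNC spliced and 1.53 in MUNC genomic cells, beside 0.02, -0.01 and 0.02 over all tested genes. These counts and medians leave out Chrne. edgeR's quasi-likelihood test on the recovered reads called 8, 8 and 9 of the 9 genes, where 53.7%, 29.8% and 47.3% of all genes it tested were called, with Dok7 lower in control cells.

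**Figure D2:**
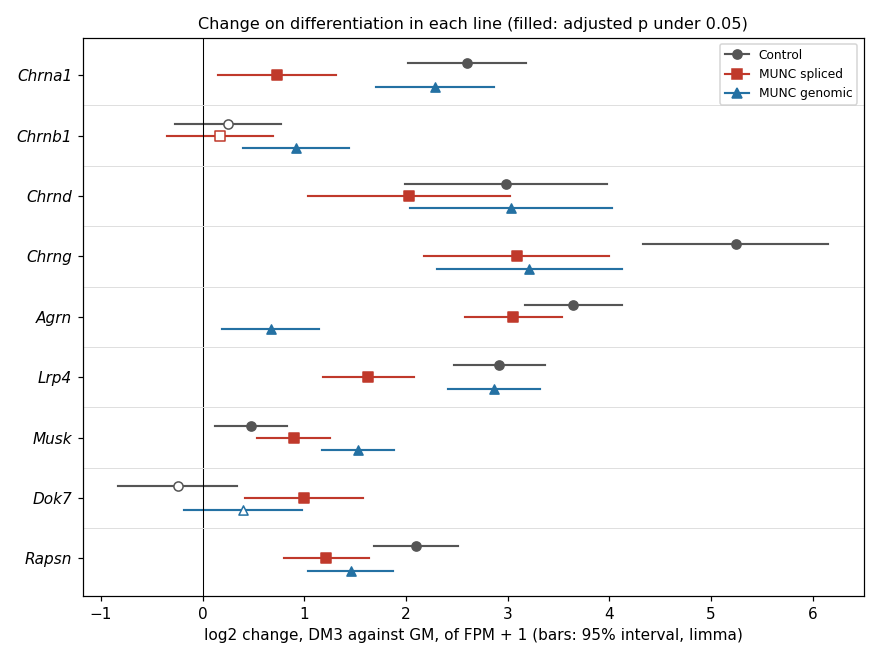
Log2 change from GM to DM3 of FPM + 1 (horizontal axis) for the 9 tested genes in control, MUNC spliced and MUNC genomic cells; bars are 95% intervals from limma and filled symbols have an adjusted p under 0.05. Chrng in control cells has the change farthest from 0, at 5.24, and Agrn in MUNC genomic cells sits at 0.67 while both other kinds of cell are above 3.

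Chrna1 (ENSMUSG00000027107, chr2:73563215-73580338, minus strand) encodes the alpha subunit, which carries most of the acetylcholine binding site. In control cells it was 13.0, 15.1 and 16.7 FPM in GM and 70.7, 120.5 and 100.7 FPM in DM3. MUNC spliced cells had 143.5, 182 and 98.4 FPM in GM and 362, 199 and 164 FPM in DM3. MUNC genomic cells had 29.5, 47.9 and 35.1 FPM in GM and 182, 206 and 164 FPM in DM3. The MUNC spliced libraries in growth medium overlapped the control libraries after differentiation, and in GM the 3 groups did not overlap. The mean in GM was 9.47 times the control mean in MUNC spliced cells (log2 difference 3.12, SE 0.28, limma adjusted p = 2.80e-07) and 2.51 times in MUNC genomic cells (1.25, adjusted p = 0.00286). On differentiation it rose 6.51-fold in control cells (log2 change 2.60, limma adjusted p = 1.41e-06) and 4.91-fold in MUNC genomic cells (2.29, adjusted p = 6.83e-06).

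In MUNC spliced cells the rise of Chrna1 on differentiation was 1.71-fold, with overlapping libraries, and its limma adjusted p was 0.0486. Without MUNC spliced replicate 1 in DM3 the log2 change was 0.40 in place of 0.73 and was not called (limma adjusted p = 0.227). Of the 18 fits that each left out 1 library, 5 called it. The change in MUNC spliced cells was smaller than that in control cells, by a log2 difference of -1.87 (SE 0.39, limma adjusted p = 0.00634), and by -2.20 without that library (adjusted p = 0.00116). In DM3 both MUNC groups stood above control, by log2 differences of 1.25 for MUNC spliced (limma adjusted p = 0.0016) and 0.94 for MUNC genomic cells (adjusted p = 0.012). The latter was 0.73 and not called without control replicate 1 in DM3 (limma adjusted p = 0.0635).

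Chrng (ENSMUSG00000026253, chr1:87204657-87212694, plus strand) encodes the embryonic gamma subunit and had the steepest change on differentiation of the subunits. Control cells in GM had 0.273, 0.442 and 0.0768 FPM, and in DM3 24.9, 60.4 and 66.4 FPM. In MUNC spliced cells the levels were 3.18, 8.07 and 3.25 FPM in GM and 103, 27.8 and 32.0 FPM in DM3. In MUNC genomic cells the levels were 0.286, 0.287 and 0.0420 FPM in GM, from 2 to 20 reads, and 9.66, 12.1 and 8.92 FPM in DM3. In GM only MUNC spliced cells were clear of 1 FPM, while in DM3 control and MUNC spliced libraries overlapped and all 3 MUNC genomic libraries lay below both. The ratio of DM3 to GM means was 191.5 in control, 11.2 in MUNC spliced and 49.8 in MUNC genomic cells. That of MUNC spliced cells was 6.19 without DM3 replicate 1 and 16.9 without GM replicate 2, and that of control cells 289 without GM replicate 2. On the log2 scale it rose by 5.24, 3.09 and 3.21 (limma adjusted p = 1.73e-07, 7.57e-05 and 1.71e-05), and the second of these was 2.50 without MUNC spliced replicate 1 in DM3 (adjusted p = 6.80e-05).

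In GM, MUNC spliced cells had 18.3 times the control mean of Chrng (log2 difference 2.12, SE 0.43, limma adjusted p = 0.00124), which was 12.2 times without MUNC spliced replicate 2 and 27.6 times without control replicate 2. In DM3 the difference between them was -0.04, with an adjusted p of 0.953 by limma, and -0.62 without MUNC spliced replicate 1 (adjusted p = 0.19). MUNC genomic cells in DM3 were below control by a log2 difference of -2.09 (limma adjusted p = 9.61e-04) and below MUNC spliced cells by a mean ratio of 5.32 (log2 2.06, adjusted p = 9.97e-04). Without MUNC spliced replicate 1 in DM3 that last ratio was 2.93 (log2 1.47, limma adjusted p = 0.00423). The change on differentiation was smaller than in control cells by -2.15 in MUNC spliced (limma adjusted p = 0.0281; -2.74 without that library) and by -2.03 in MUNC genomic cells (adjusted p = 0.0478), and edgeR on the reads gave an adjusted p of 0.316 for the latter.

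Chrnd (ENSMUSG00000026251, chr1:87190607-87200070, plus strand) encodes the delta subunit, present in the embryonic and the adult receptor, and lies next to Chrng. Control cells had 12.5, 21.5 and 9.08 FPM in GM and 74.7, 128 and 153 FPM in DM3. The MUNC spliced libraries held 3.33, 12.3 and 5.16 FPM in GM and 58.7, 19.3 and 19.1 FPM in DM3. The MUNC genomic libraries held 2.92, 5.98 and 2.16 FPM in GM and 28.5, 45.0 and 33.9 FPM in DM3. Every MUNC library in DM3 was below every control library in DM3. Chrnd rose in all 3 kinds of cell, by 2.98, 2.03 and 3.03 on the log2 scale in control, MUNC spliced and MUNC genomic cells (limma adjusted p = 5.35e-05, 0.00334 and 6.36e-05). The rise in MUNC spliced cells was 1.51 without DM3 replicate 1 (limma adjusted p = 0.0147), and the ratio of means, 4.66, was then 2.77, and 7.63 without GM replicate 2. In DM3 the control mean was 3.66 times that of MUNC spliced cells (log2 difference -1.98, limma adjusted p = 0.00275) and 3.31 times that of MUNC genomic cells (-1.66, adjusted p = 0.00948). Without MUNC spliced replicate 1 the first ratio was 6.18 (-2.50, limma adjusted p = 4.05e-04).

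In growth medium MUNC genomic cells were below control in Chrnd by a log2 difference of -1.71 (limma adjusted p = 0.0122), which was -1.40 and not called without control replicate 2 in GM (adjusted p = 0.0573). MUNC spliced cells overlapped control there (-1.03, limma adjusted p = 0.0967), a difference called without MUNC spliced replicate 2 in GM (-1.49, adjusted p = 0.0295). For this subunit no difference in the change on differentiation was called between control and MUNC spliced cells (-0.95, SE 0.66) or MUNC genomic cells (0.05, SE 0.66).

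Chrnb1 (ENSMUSG00000041189, chr11:69784036-69795943, minus strand) encodes the beta subunit and had the narrowest range, 2.97-fold between the highest and lowest group means. Control cells had 46.7, 65.7 and 76.1 FPM in GM and 70.8, 77.4 and 72.2 FPM in DM3. MUNC spliced cells reached 19.6, 31.6 and 34.0 FPM in GM and 46.8, 28.9 and 22.5 FPM in DM3. MUNC genomic cells reached 20.0, 23.8 and 30.3 FPM in GM and 42.8, 52.1 and 46.6 FPM in DM3. Within each medium, both MUNC groups lay below control without overlap. In GM the log2 differences from control were -1.13 for MUNC spliced and -1.30 for MUNC genomic cells (limma adjusted p = 0.00217 and 8.77e-04). In DM3 they were -1.21 for MUNC spliced (limma adjusted p = 9.16e-04) and -0.63 for MUNC genomic cells (adjusted p = 0.0503), the latter called with the replicate number as a block (adjusted p = 0.045) and without MUNC spliced replicate 1 in DM3 (adjusted p = 0.0217). For that difference of MUNC genomic cells, edgeR on the reads made no call (adjusted p = 0.0764). The authors' deposited DESeq2 result gave -0.62 (adjusted p = 1.34e-06). A rise on differentiation was called in MUNC genomic cells alone (0.92, limma adjusted p = 0.00522), and the difference of that change from the one in control cells was not called (0.67, adjusted p = 0.274).

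Chrne (ENSMUSG00000014609, chr11:70614883-70619216, minus strand) encodes the adult epsilon subunit. It had 0 to 2 reads in each of the 18 libraries, below the limit that a count of 0 allows, and 0 reads in all 3 control libraries in GM. A difference between groups was not detectable at this depth.

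Per kilobase of exon, the order of the subunits changed between groups. Control cells in GM had 24.8 ± 5.89 FPM per kilobase of Chrnb1 (SD, n = 3), above 3.41 ± 0.427 of Chrna1, 4.36 ± 1.95 of Chrnd and 0.0635 ± 0.0440 of Chrng. In control DM3 Chrnd led with 36.1 ± 12.2, followed by Chrnb1 at 29.0 ± 1.37, Chrna1 at 22.2 ± 5.71 and Chrng at 12.2 ± 5.39 FPM per kilobase, and the libraries of Chrnd overlapped those of both Chrnb1 and Chrna1. In MUNC spliced DM3 Chrna1 led with 55.2 ± 24.1, and Chrng, Chrnb1 and Chrnd had means of 13.0, 12.9 and 9.85 FPM per kilobase. In MUNC genomic DM3 the means were 42.0 for Chrna1, 18.6 for Chrnb1, 10.9 for Chrnd and 2.45 for Chrng.

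The ratio of Chrnb1 to Chrna1 per kilobase was 6.22, 7.56 and 7.88 in the control libraries in GM and 0.224, 0.252 and 0.237 in the MUNC spliced libraries in DM3. Control cells in DM3 had ratios of 1.73, 1.11 and 1.24, and those of MUNC genomic cells in DM3 were 0.407, 0.439 and 0.491. The ratio of Chrng to Chrna1 in DM3 was 0.371, 0.528 and 0.695 in control, 0.300, 0.147 and 0.205 in MUNC spliced and 0.0559, 0.0617 and 0.0572 in MUNC genomic cells, and the 3 groups did not overlap. The 3 MUNC genomic libraries differed little in this ratio, and the replicate that stood apart among MUNC spliced libraries had the highest ratio of its group. These ratios are descriptions and were not tested.

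**Figure D3:**
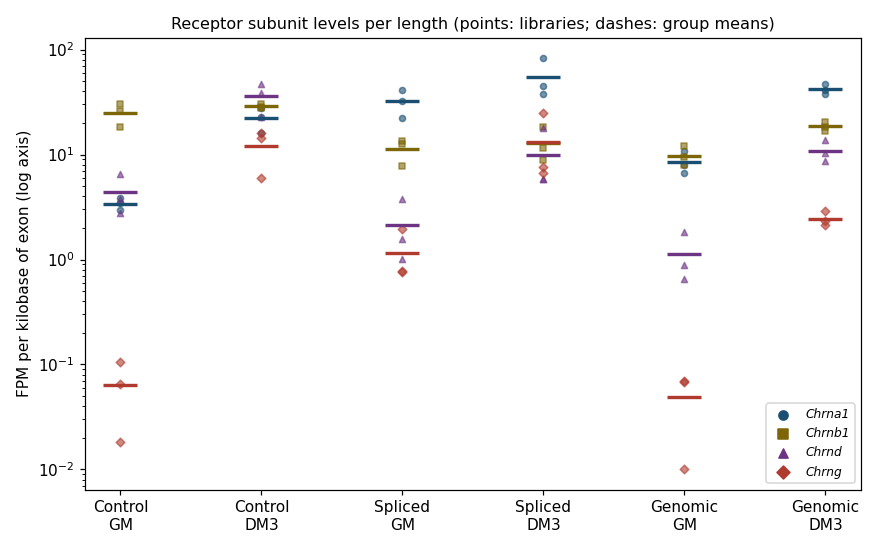
Levels of Chrna1, Chrnb1, Chrnd and Chrng in FPM per kilobase of exon (vertical axis, log scale) in each group; points are libraries and dashes are group means (n = 3). Chrnb1 is the highest subunit in control GM at a mean of 24.8, Chrna1 is the highest in both MUNC spliced groups and in MUNC genomic DM3, and Chrng spans from 0.0493 in MUNC genomic GM to 13.0 in MUNC spliced DM3.

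Agrn (ENSMUSG00000041936, chr4:156165290-156197488, minus strand) encodes agrin, which muscle cells make too, although the splice form that drives receptor clustering comes from the nerve. Gene totals do not separate the splice forms. Control cells had 44.7, 86.9 and 43.9 FPM in GM and 642, 772 and 712 FPM in DM3. For MUNC spliced cells the values were 44.0, 60.0 and 56.8 FPM in GM and 350.2, 495 and 524 FPM in DM3. For MUNC genomic cells the values were 53.8, 78.6 and 54.8 FPM in GM and 92.4, 98.2 and 105 FPM in DM3. The 3 kinds of cell overlapped in GM, and in DM3 they separated into 3 levels that did not overlap. Agrn rose 12.1-fold in control (log2 change 3.65, SE 0.23, limma adjusted p = 1.24e-08), 8.51-fold in MUNC spliced (3.06, adjusted p = 1.43e-07) and 1.58-fold in MUNC genomic cells (0.67, adjusted p = 0.0208).

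The smaller rise of Agrn in MUNC genomic cells differed from that in control cells by -2.98 on the log2 scale (SE 0.32, limma adjusted p = 2.26e-05). In DM3 the control mean was 7.20 times that of MUNC genomic cells (log2 difference -2.83, limma adjusted p = 3.85e-08). MUNC spliced cells in DM3 were below control by a log2 difference of -0.65 (limma adjusted p = 0.0282), which was -0.47 and not called without MUNC spliced replicate 1 (adjusted p = 0.131), nor without control replicate 2 or 3 in DM3 (adjusted p = 0.0917 and 0.0674). The rise in MUNC genomic cells was not called without GM replicate 1 or 3 or DM3 replicate 3 of that group (0.58, 0.59 and 0.62, limma adjusted p = 0.0792, 0.0762 and 0.0636).

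Lrp4 (ENSMUSG00000027253, chr2:91457511-91513779, plus strand) encodes the muscle receptor for agrin. Control cells had 12.8, 15.04 and 9.82 FPM in GM and 78.0, 107 and 120.2 FPM in DM3. MUNC spliced cells had 100.1, 149 and 91.9 FPM in GM and 389, 374 and 284 FPM in DM3. MUNC genomic cells had 19.7, 22.8 and 20.2 FPM in GM and 122, 185 and 176 FPM in DM3. In both media the order of the means was control, MUNC genomic, MUNC spliced, and within each medium no libraries of these groups overlapped. In GM, MUNC spliced cells had 9.04 times the control mean (log2 difference 3.06, SE 0.21, limma adjusted p = 1.62e-08) and MUNC genomic cells 1.67 times (0.71, adjusted p = 0.0206). In DM3 the differences from control were 1.78 for MUNC spliced (limma adjusted p = 5.92e-06) and 0.66 for MUNC genomic cells (adjusted p = 0.0209). Both differences of MUNC genomic cells lost their call in some fits that left out 1 library. That in GM was not called without control replicate 3 (0.56, limma adjusted p = 0.0966) or MUNC genomic replicate 2 (0.65, 0.0729), and that in DM3 not without control replicate 1 (0.48, 0.106) or MUNC genomic replicate 2 or 3 (0.55 and 0.58, 0.0918 and 0.0772).

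On differentiation Lrp4 rose 8.10-fold in control, 3.07-fold in MUNC spliced and 7.71-fold in MUNC genomic cells (log2 changes 2.92, 1.63 and 2.87; limma adjusted p = 7.82e-08, 4.34e-05 and 1.25e-07). The change in MUNC spliced cells was smaller than in control cells by -1.29 (SE 0.30, limma adjusted p = 0.0115), and for MUNC genomic cells the difference was -0.05 (adjusted p = 0.944).

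Musk (ENSMUSG00000057280, chr4:58285960-58374303, plus strand) encodes the receptor tyrosine kinase of the pathway and spanned 771-fold between the lowest and highest group means. Control cells had 0.119, 0.0354 and 0.0307 FPM in GM, which is 2 to 7 reads, and 0.442, 0.395 and 0.608 FPM in DM3. In MUNC spliced cells the levels were 1.46, 1.65 and 1.23 FPM in GM and 3.95, 3.05 and 3.67 FPM in DM3. In MUNC genomic cells the levels were 15.9, 19.7 and 12.2 FPM in GM and 37.0, 52.2 and 54.0 FPM in DM3. The groups ran in the order control, MUNC spliced, MUNC genomic, with GM below DM3 in each kind of cell, and no group overlapped its neighbour in that order. MUNC genomic cells had 257.5 times the control mean in GM (log2 difference of FPM + 1 3.97, SE 0.17, limma adjusted p = 1.82e-11) and 99.1 times in DM3 (5.02, adjusted p = 7.63e-13). MUNC spliced cells had 23.4 times the control mean in GM (1.20, limma adjusted p = 4.88e-05) and 7.39 times in DM3 (1.62, adjusted p = 1.27e-06). The control mean in GM, and with it the span given above, rests on 7, 2 and 2 reads, and without replicate 1 the ratios in GM were 482 for MUNC genomic and 43.8 for MUNC spliced cells.

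Musk rose on differentiation in all 3 kinds of cell, 7.78-fold in control, 2.46-fold in MUNC spliced and 2.99-fold in MUNC genomic cells by group means (limma adjusted p = 0.0223, 7.54e-04 and 3.36e-06). The ratio in control cells was 14.6 without GM replicate 1. The call in control cells was lost without GM replicate 2 or 3 or DM3 replicate 3 (limma adjusted p = 0.0536, 0.0589 and 0.0796). On log2(FPM + 1) the change was larger in MUNC genomic than in control cells, by 1.05 (limma adjusted p = 0.0104), but that sign depends on the scale. With a pseudocount of 0.1 the difference was -0.29 and not called (limma adjusted p = 0.688), and edgeR on the reads gave -1.32 (adjusted p = 0.146). For MUNC spliced cells the same difference was 0.42 by limma (adjusted p = 0.247) and -1.64 by edgeR (adjusted p = 0.0491).

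Relative to its co-receptor, Musk stood apart in MUNC genomic cells. The ratio of Musk to Lrp4 per kilobase was 2.24, 2.40 and 1.68 in MUNC genomic GM and 0.843, 0.783 and 0.851 in MUNC genomic DM3. In the other 12 libraries it lay between 0.00655 and 0.0407. Musk was thus above Lrp4 per length in the MUNC genomic libraries in GM and was a few hundredths of it or less in control and MUNC spliced libraries. Beside Musk, the motor neuron marker list moved in the same cells, since its summed level was 3.84 to 5.59 FPM in MUNC genomic GM and 10.9 to 15.5 FPM in MUNC genomic DM3 and at most 1.54 FPM in any control or MUNC spliced library. Nearly all of that sum was Syt1, the gene of a synaptic vesicle calcium sensor, and the defining genes Chat and Slc18a3 had 0 reads in all 18 libraries. An endothelial list moved with these cells too, with a sum of 7.14 to 7.62 FPM in MUNC genomic GM, 4.01 to 5.28 FPM in MUNC genomic DM3 and at most 1.72 FPM elsewhere. Nearly all of it was Cdh5, while Kdr had at most 1 read in any library. A list of fibroblast and adipocyte genes summed to 23.95 to 32.4 FPM in MUNC genomic GM and 25.8 to 28.98 FPM in MUNC genomic DM3, against 13.4 to 18.5 FPM in control and 17.5 to 24.5 FPM in MUNC spliced libraries. Its gene Pdgfra was higher in MUNC genomic than in control cells in both media (log2 differences 1.61 and 1.27, limma adjusted p = 7.32e-06 and 4.88e-05), and Adipoq had 0 reads in 5 of the 6 groups. Pparg of the same list was lower than control in GM and DM3 (-0.59 and -1.04, limma adjusted p = 0.0466 and 0.000814). The median log2 difference of the list's 3 tested genes from control was -0.57 in GM and -0.75 in DM3. The muscle marker list was higher in these cells too, at 339.6 to 625 FPM in MUNC genomic GM and 887.6 to 1050 FPM in MUNC genomic DM3. Its sum was 16.6 to 33.6 and 66.8 to 97.1 FPM in control GM and DM3. In MUNC spliced GM and DM3 it was 53.0 to 78.9 and 164.8 to 758.4 FPM. Des of this list was above control in MUNC genomic GM and DM3 by 4.25 and 3.53 (limma adjusted p = 7.07e-08 and 3.94e-07). The part of these lists in the Musk result was not tested.

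Dok7 (ENSMUSG00000044716, chr5:35056766-35087839, plus strand) encodes the adaptor that MuSK needs for activity, and it was below 1 FPM in 17 of the 18 libraries. Control cells had 0.205, 0.283 and 0.246 FPM in GM and 0.0960, 0.0395 and 0.0184 FPM in DM3. The MUNC spliced libraries held 0.303, 0.532 and 0.234 FPM in GM and 4.52, 0.941 and 0.832 FPM in DM3. The MUNC genomic libraries held 0.1002, 0 and 0.0210 FPM in GM and 0.237, 0.557 and 0.332 FPM in DM3. MUNC spliced cells in DM3 were above every other group, and among them replicate 1 had several times the level of the other 2 libraries. They exceeded control in DM3 by 1.36 on the log2 scale (SE 0.28, limma adjusted p = 8.62e-04) and their own level in GM by 0.998 (adjusted p = 0.0104). Without replicate 1 these values were 0.84 and 0.48, both still called by limma (adjusted p = 3.73e-05 and 0.00422). By group means they had 40.9 times the control level in DM3 and 5.88 times their own level in GM, and 17.3 and 2.49 times without replicate 1. The control mean in DM3 rests on 1 to 5 reads a library, and without its replicate 1 the first ratio was 72.5.

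In control cells Dok7 had a mean of 0.245 FPM in GM and 0.0513 FPM in DM3, without overlap. The log2 change of FPM + 1 was -0.24 and not called by limma (adjusted p = 0.47), whereas edgeR on the reads gave -2.19 (adjusted p = 0.0498). The change on differentiation in MUNC spliced cells differed from that in control cells by 1.24 (limma adjusted p = 0.0433), and by 0.725 without MUNC spliced replicate 1 in DM3 (adjusted p = 0.00944). For MUNC genomic cells this difference was 0.64 by limma (adjusted p = 0.365) and 5.29 by edgeR (adjusted p = 0.0238). Without MUNC spliced replicate 1 in DM3, whose spread enters the pooled estimate, limma called it at the same value (adjusted p = 0.0105), and also Dok7 in MUNC genomic DM3 over GM (0.40, adjusted p = 0.00445) and over control DM3 (0.38, adjusted p = 0.00743).

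Rapsn (ENSMUSG00000002104, chr2:91035620-91045729, plus strand) encodes rapsyn, the scaffold that binds receptors. Control cells had 13.6, 13.3 and 16.4 FPM in GM and 55.3, 74.6 and 65.8 FPM in DM3. MUNC spliced cells reached 32.4, 36.5 and 26.7 FPM in GM and 55.9, 94.0 and 79.3 FPM in DM3. MUNC genomic cells reached 12.1, 11.3 and 17.6 FPM in GM and 32.3, 42.8 and 41.3 FPM in DM3. In GM the MUNC spliced libraries were above all others, and in DM3 the MUNC genomic libraries were below all others. MUNC spliced cells exceeded control in GM by 1.09 (SE 0.20, limma adjusted p = 5.15e-04), and in DM3 MUNC genomic cells were below control by -0.74 (adjusted p = 0.00695). Rapsn rose 4.52-fold, 2.40-fold and 2.84-fold on differentiation in control, MUNC spliced and MUNC genomic cells (limma adjusted p = 5.53e-07, 2.61e-04 and 1.99e-05). The change in MUNC spliced cells was smaller than in control cells by -0.88 (limma adjusted p = 0.0443), a call not made by edgeR (adjusted p = 0.0533), with TMM scaling (0.0572), or without MUNC spliced replicate 1 in DM3 (-0.68, limma adjusted p = 0.107).

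Against control in GM, limma called 5 genes higher (Chrna1, Chrng, Lrp4, Musk and Rapsn) and 1 lower (Chrnb1) in MUNC spliced cells, where 35.5% of all tested genes were called, 18.2% higher and 17.3% lower. In MUNC genomic cells 3 were higher (Chrna1, Lrp4 and Musk) and 2 lower (Chrnb1 and Chrnd), where 26.8% were called, 12.2% higher and 14.5% lower. For DM3 the counts were 4 higher and 3 lower in MUNC spliced cells (43.3% of all tested genes called, 22.3% higher and 21% lower) and 3 higher and 4 lower in MUNC genomic cells (40.3% called, 19.3% higher and 20.9% lower). Chrna1, Lrp4 and Musk were higher than control in both MUNC groups and both media. Comparisons of the 2 MUNC groups share the control libraries, so their values stand side by side without a test of their likeness. The median log2 difference of the 9 genes from control was 1.09 and -0.07 in GM and 0.20 and -0.63 in DM3 for MUNC spliced and MUNC genomic cells, beside medians between -0.03 and 0.01 over all tested genes.

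**Figure D4:**
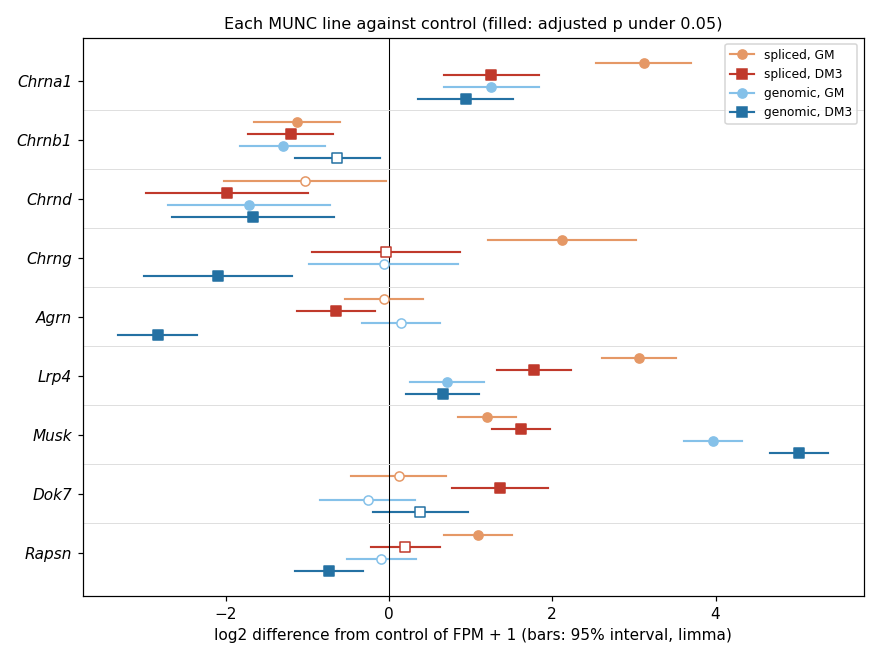
Log2 difference from control of FPM + 1 (horizontal axis) for the 9 tested genes in MUNC spliced and MUNC genomic cells, in GM (circles) and DM3 (squares); bars are 95% intervals from limma and filled symbols have an adjusted p under 0.05. Musk in MUNC genomic cells lies farthest above 0, at 3.97 and 5.02, and Agrn in MUNC genomic DM3 farthest below, at -2.83.

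Set against each other, MUNC spliced cells had more Chrna1, Chrng, Lrp4 and Rapsn than MUNC genomic cells in GM and less Musk, so that limma called 4 genes higher and 1 lower where 35.8% of all tested genes were called, 19.9% higher and 16% lower. After differentiation it called 5 higher (Chrng, Lrp4, Dok7, Agrn and Rapsn) and 1 lower (Musk), where 44.2% were called, 23.4% higher and 20.8% lower. Without MUNC spliced replicate 1 in DM3, Chrnb1 was called lower too (-0.86 in place of -0.57, limma adjusted p = 0.00775), which made 5 higher and 2 lower, and the difference of Dok7 was 0.46 in place of 0.98 (adjusted p = 0.00475), with a ratio of means of 2.36 in place of 5.58. In GM, Dok7 was called higher without that library (0.38, limma adjusted p = 0.00919). The MUNC genomic mean of Musk was 11.01 times the MUNC spliced mean in GM (log2 difference -2.77, limma adjusted p = 1.68e-09) and 13.4 times in DM3 (-3.40, adjusted p = 9.17e-11). Lrp4 went the other way, with the MUNC spliced mean 5.43 times the MUNC genomic mean in GM (2.36, limma adjusted p = 2.38e-07) and 2.16 times in DM3 (1.12, adjusted p = 4.37e-04). In DM3 the MUNC spliced mean of Agrn was 4.64 times that of MUNC genomic cells (2.18, limma adjusted p = 8.34e-07), and Chrna1 did not separate them (0.31, adjusted p = 0.376).

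The change on differentiation itself differed from that of control cells in 5 genes for MUNC spliced cells, 4 with a smaller rise (Chrna1, Chrng, Lrp4 and Rapsn) and Dok7 with a higher change, where 14.4% of all tested genes were called by limma, 7.43% higher and 6.94% lower. For MUNC genomic cells 3 genes differed, Agrn and Chrng with a smaller rise and Musk with a larger one on this scale, which reversed with the smaller pseudocount, where 8.81% were called, 3.56% higher and 5.25% lower. For MUNC spliced cells the count was 2 without the filter on low levels, and between 2 and 5 when each library was left out in turn. It was 2 without control GM replicate 1, control DM3 replicate 2 or 3, or MUNC spliced GM replicate 2, and 3 without 6 other libraries. Of the 5 differences, those of Chrna1 and Lrp4 were called in all 18 such fits, Chrng in 11, Rapsn in 7 and Dok7 in 4. In MUNC genomic cells those of Agrn and Musk were called in all 18 and that of Chrng in 5.

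Myod1 and Myog, whose proteins bind E-boxes, were compared with the set, and binding to the matches printed above was not measured. Myod1 had 0 to 12 reads in each control library, 8.84 to 17.9 FPM in MUNC spliced GM, 15.96 to 53.4 FPM in MUNC spliced DM3, 1.66 to 6.99 FPM in MUNC genomic GM and 14.5 to 22.5 FPM in MUNC genomic DM3. Myog had 0.192, 0.434 and 0.405 FPM in control DM3, beside 226, 52.6 and 41.0 FPM in MUNC spliced DM3 and 7.90, 14.7 and 6.50 FPM in MUNC genomic DM3. Myf5, a factor of the same family, was at 95.04 to 109.9 FPM in control DM3, 95.5 to 124.7 FPM in MUNC spliced DM3 and 19.96 to 34.5 FPM in MUNC genomic DM3, and it rose in control cells by 0.52 (limma adjusted p = 0.0151). Control libraries in DM3 had Chrng at 24.9 to 66.4 FPM and Chrnd at 74.7 to 153 FPM beside this level of Myf5 and Myog under 0.5 FPM. The part of these factors in the levels of Chrng and Chrnd was not tested. On differentiation of control cells Myod1 and Myog were not called by limma (log2 changes 0.09 and 0.38, adjusted p = 0.867 and 0.491), and the authors' deposited DESeq2 table gave Myog a log2 fold change of 3.58 (adjusted p = 0.00185). Control means of Myog were 0.0287 FPM in GM, under the level of 3 reads, and 0.344 FPM in DM3, without overlap of libraries. Those of Myod1 were 0.02845 and 0.0993 FPM, with overlap. At such levels log2(FPM + 1) understates a change. Of 19 tested genes on a list of myogenic regulators and targets, 7 were higher and 3 lower in control DM3 than in GM, where 29.6% of all tested genes were higher and 28.6% lower. Among the lower genes were Id2, an inhibitor of Myod1 family factors, at -2.66 (limma adjusted p = 3.03e-04), and the muscle actin gene Acta1 at -1.93 (adjusted p = 0.0102).

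**Figure D5:**
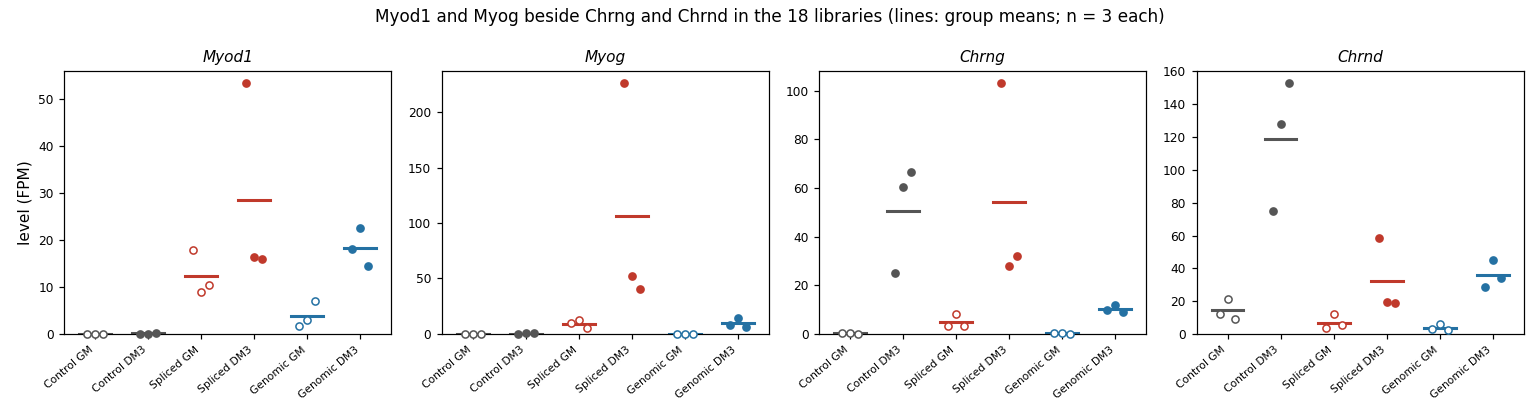
Levels of Myod1, Myog, Chrng and Chrnd in FPM (vertical axes, linear, from 0) in the 18 libraries; points are libraries, lines are group means, open points are GM and filled points DM3. In control DM3, Chrng and Chrnd are high while Myod1 stays at or below 0.221 FPM and Myog at or below 0.434 FPM.

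Other genes of the synapse were counted on lists, beside the shares called in each comparison over all tested genes, which were 58.2% in control, 35.6% in MUNC spliced and 51.4% in MUNC genomic cells on differentiation. Of 18 partners of MuSK and rapsyn, 6 rose and 4 fell in control cells on differentiation, 2 rose and 1 fell in MUNC spliced cells, and 4 rose and 3 fell in MUNC genomic cells, so that in none of the 3 did the share called exceed that over all genes. Vangl2, a planar polarity protein reported to act with MuSK, was 1.36 ± 0.299 FPM in control GM, 23.3 ± 3.47 in MUNC spliced GM and 29.3 ± 1.95 in MUNC genomic GM (SD, n = 3). It was higher than control in both MUNC groups by 3.36 and 3.69 (limma adjusted p = 8.10e-10 and 1.35e-10). Sorbs2, a cytoskeletal adaptor, was 77.6 ± 22.9 FPM in MUNC spliced GM, 1.43 ± 0.983 in control GM and 0.138 ± 0.0792 in MUNC genomic GM. Pdzrn3, a ubiquitin ligase that binds MuSK, was 33.1 ± 5.40 FPM in MUNC spliced DM3 and 1.94 ± 0.206 in MUNC genomic DM3 (log2 difference 3.53, limma adjusted p = 9.49e-12).

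Among 15 tested synaptic enzymes, matrix proteins and anchors of a list of 18, 8 rose and 0 fell in control cells on differentiation, 3 and 0 in MUNC spliced cells and 8 and 0 in MUNC genomic cells, where 29.6%, 17.2% and 26.3% of all tested genes rose and 28.6%, 18.4% and 25.1% fell. Ache, the acetylcholinesterase gene, rose in control cells (0.50, limma adjusted p = 0.0166). The means there were 0.442 FPM in GM and 1.09 FPM in DM3, a ratio of 2.47, and the libraries overlapped. Ache also rose in MUNC genomic cells (1.18, limma adjusted p = 2.81e-05) and reached 2.04, 1.85 and 1.99 FPM in MUNC genomic DM3. In MUNC spliced DM3 it was 0.133, 0.261 and 0.398 FPM, below control in DM3 (log2 difference -0.69, limma adjusted p = 0.00306). Colq, which encodes the collagen tail that anchors the esterase, had at most 16 reads in any library and was not tested. Utrn, the gene of the synaptic dystrophin relative utrophin, was between 100.6 and 271 FPM in all libraries and rose in control cells by 0.73 (limma adjusted p = 0.00109). Nid2, a basement membrane nidogen, rose in all 3 kinds of cell and reached 667 ± 20.7 FPM in MUNC spliced DM3 against 105 ± 17.8 in control DM3.

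Of 14 tested genes of synaptic transcription, 3 rose and 3 fell in control cells, 3 rose and 1 fell in MUNC spliced cells, and 2 rose and 4 fell in MUNC genomic cells, each below the 58.2%, 35.6% and 51.4% called over all tested genes. Erbb3, a neuregulin receptor gene, lay between 1.26 and 10.8 FPM, was highest in MUNC spliced replicate 1 in DM3, and had limma adjusted p-values of 0.112 or more in all 11 comparisons. Etv4, an ETS family factor, fell on differentiation in all 3 kinds of cell (log2 changes -1.72, -1.97 and -1.42; limma adjusted p = 1.38e-05, 1.74e-05 and 1.12e-04). Nrg1, the neuregulin gene, was lower in MUNC genomic than in control cells in DM3 by -0.79 (limma adjusted p = 6.01e-04). Of the 5 glycosylation genes needed for receptor export, 2 rose and 2 fell in control cells, 0 and 2 in MUNC spliced cells and 2 and 2 in MUNC genomic cells, numbers too small to set against those shares. In control cells Gfpt1 was higher by 0.74 (limma adjusted p = 0.00175) and Alg14 lower, by -0.73 (adjusted p = 3.84e-04).

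Of 11 other nicotinic subunit genes, which serve neuronal receptors, only Chrnb2 passed the filter. It rose from 0.951 ± 0.289 to 2.86 ± 0.520 FPM in control cells (SD, n = 3; log2 change 0.99, limma adjusted p = 5.93e-05), and in DM3 it was lower than control in both MUNC groups (-0.84 and -0.70, adjusted p = 4.40e-04 and 0.00189).

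Over the 18 libraries the closest pair within the set was Chrna1 and Lrp4, with a Pearson r of log2(FPM + 1) of 0.961. These points share libraries and group differences, so the correlations are descriptions. Outside the set, the genes most like Chrna1 were Smarcd3 (r = 0.951), Chn1 (0.946), Zscan21 (0.944), Elk1 (0.943) and Slc39a3 (0.939). Among those most like Musk were Slc7a7 (0.981), Lmo2 (0.978), Ndrg2 (0.978) and Lmbr1 (0.977). In that order their means were 0.315, 0, 0.0738 and 0.0169 FPM in control GM and 8.62, 0.812, 21.9 and 8.89 FPM in MUNC genomic DM3. Lmo2 was at most 0.976 FPM and passed the filter through MUNC genomic libraries alone.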

How the data were processed

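RNA-seq of 18 C2C12 libraries was read from a table of normalized signal that the authors deposited, in FPM. The submitters' processing notes name STAR, HTSeq, DESeq2 and the build mm10, without versions. One label calls the values FPKM, but 100% of values were whole multiples of 1 step per library (within 0.05 of a read), so reads were recovered and no division by length had been made. The authors also deposited DESeq2 tables of 5 comparisons, with log2 fold changes and p-values per the file headers, and scores that were not used.

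Groups came from sample titles, since a label that names cells as myoblasts or myotubes disagrees with some titles. FPM were tested as log2(FPM + 1) with limma 3.58.1 in R 4.3.3, all 18 libraries in 1 fit with a mean per group (12 residual degrees of freedom). Genes needed 0.5 FPM in 3 libraries. Alternatives were a pseudocount of 0.1, no filter, TMM scaling, edgeR 4.0.16 on recovered reads (15721 genes), the replicate number as a block, and each library left out. The scripts were tested on simulated data. Lengths, coordinates and exons came from GENCODE on GRCm38. Of 128 list genes, 124 matched by file symbol and 4 by Ensembl id through a separate reference of gene names.

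All genes of the synapse set were named in every comparison. From other lists, at most 2 called genes with the largest changes per comparison were named, plus Ache, Colq, Utrn, Erbb3, Myod1 and Myog, and the 5 genes most like Chrna1 and Musk. Some of the genes this rule takes, and a marker sum, are not reported here. The members and lists were chosen with earlier results of these data known. Replicate numbers came from the titles. Deviations of same-numbered libraries correlated from -0.057 to 0.727, and every correlation was over 0.1 in 7 of 15 pairs of groups, which included the comparisons of control DM3 with GM and of each MUNC group with control in either medium.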

Additional observations from a re-analysis of the deposited data

Results flagged for a closer look

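The change on differentiation was compared between each MUNC group and control cells, which all share the control libraries, and 8 such differences passed the limma test at an adjusted p under 0.05. In MUNC spliced cells the rise was smaller by a log2 difference of -1.87 for Chrna1, -2.15 for Chrng, -1.29 for Lrp4 and -0.88 for Rapsn, and for Dok7 the change was higher by 1.24. In MUNC genomic cells the rise was smaller by -2.98 for Agrn and -2.03 for Chrng, and for Musk it was larger by 1.05 on the log2(FPM + 1) scale, a sign that turned with a pseudocount of 0.1. Agrn kept its call in all 18 fits with 1 library left out, with values from -3.30 to -2.80.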

How the results depend on the processing

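The counts of genes called stayed within 1.5 times of those reported under every alternative, except that of changes differing between MUNC spliced and control cells, which was 2 without the filter on low levels and ranged from 2 to 5 with each library left out. Without that filter 7 calls of single genes were lost. Among them were the rises of Chrna1 in MUNC spliced cells (limma adjusted p = 0.101) and of Musk in control cells (0.0624). Agrn in MUNC spliced against control DM3 was lost too (0.0595). The others were differences of change, Chrng in MUNC genomic cells (0.109) and Chrng, Rapsn and Dok7 in MUNC spliced cells (0.0662, 0.0833 and 0.0886). The sign reversed for Chrng in MUNC spliced against control DM3 with edgeR (0.0938), for Musk in the difference between MUNC genomic and control changes with a pseudocount of 0.1 (-0.287) and edgeR (-1.32), and for Musk in the same difference for MUNC spliced cells (-0.627 and -1.64). The cause was not tested. With each library left out, changes near 0 that were not called crossed it, over these ranges of log2 differences. Against control in GM, Agrn lay between -0.227 and 0.257 in MUNC spliced cells and between -0.0313 and 0.462 in MUNC genomic cells, where Chrng ran from -0.176 to 0.0357 and Rapsn from -0.274 to 0.0221. Chrng in MUNC spliced against control DM3 ran from -0.623 to 0.303, Chrna1 in MUNC spliced against MUNC genomic DM3 from -0.0183 to 0.549, and Chrnb1 in MUNC spliced cells on differentiation from -0.114 to 0.400. Differences of change from control ran from -0.363 to 0.151 for Chrnb1 in MUNC spliced cells, and in MUNC genomic cells from -0.265 to 0.380 for Chrnd and from -0.230 to 0.137 for Lrp4.

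With the replicate number as a block, the difference of Chrnb1 between MUNC genomic and control DM3 was called at -0.633 (limma adjusted p = 0.045), and the block changed no other call among the genes of the set.

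The change of Chrna1 in MUNC spliced cells was called in 5 of the 18 fits with a library left out (0.397 to 0.965), the difference of change for Chrng in MUNC genomic cells in 5 (-2.47 to -1.78) and for Dok7 in MUNC spliced cells in 4 (0.725 to 1.52). Dok7, with 0 to 7 reads in MUNC genomic GM and 1 to 5 in control DM3, gained 5 calls both with the smaller pseudocount and with edgeR. TMM scaling moved the median of all genes by at most 0.0554.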
